A study of Mus musculus with 6 samples.

Results

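The genes described here are Foxp4, the forkhead transcription factor deleted in the study's knockout mice, and 9 of its relatives: Foxp1, Foxp2, Foxo1, Foxo3, Foxo4, Foxc1, Foxc2, Foxk1 and Foxn3. They were taken by symbol from the deposited expression table, as 10 of its 44 forkhead genes and of its 21900 distinct gene symbols, and each had a row there. RNA was sequenced from inguinal white fat, which lies under the skin of the groin, in 2 groups of 3 libraries. The 3 knockout libraries carry the genotype Foxp4AdipoQdelta/delta: the floxed gene removed with a Cre recombinase under the promoter of adiponectin (Adipoq), a driver of mature fat cells. The 3 control libraries carry the genotype Foxp4fl/fl, with no Cre named. Mice of both groups were C57BL/6, 2 months of age, kept on chow at 22 °C and then held at 4 °C for 7 days, so there is no group without cold exposure. The control genotype names no Cre, and the driver and the loss of Foxp4 therefore cannot be told apart. The labels do not say which exons are floxed, whether a sample is a single mouse or a pool, or which sex was used. The p-values below thus measure only the spread between these samples.

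Forkhead factors share a winged-helix DNA-binding domain and bind related AT-rich sites. Members of the Foxp subfamily form dimers with each other through a leucine zipper and act largely as repressors, with the corepressor CtBP and the NuRD chromatin complex among their partners. Foxo factors are switched off by insulin, since the kinase Akt phosphorylates them and 14-3-3 proteins then hold them outside the nucleus. In mouse fat, Foxp1 is known to restrain beige adipocyte differentiation, Foxo1 to restrain adipogenesis, and Foxc2 to favour a brown-like state when it is overexpressed.

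Levels are in FPKM, reads scaled to exon length and library size, so they are per length and can be compared between genes. Depth ran from 13182515 to 16000926 recovered reads per library. Adipocyte markers were abundant in every library, with Fabp4 at a mean of 2483 FPKM in knockouts and 2539 FPKM in controls and Adipoq at 872 and 1212 FPKM. Epithelial and lymphocyte markers were scarce: their lists summed to at most 1.03 and 4.90 FPKM in knockouts and 2.14 and 6.41 FPKM in controls, and Krt14 was at 0 in all 6 libraries.

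Foxp4 was lower in every knockout library. It stood at 1.92, 1.71 and 1.64 FPKM in the knockouts, against 5.76, 4.01 and 4.62 FPKM in the controls. The groups did not overlap, the knockouts lay close together, and control replicate 1 was the highest of all. These values rest on 112 to 140 reads per knockout library and 289 to 400 reads per control library, 374 and 1056 reads in all. Measured against the control mean, the knockout libraries retained 40.0, 35.7 and 34.1% of the Foxp4 level. The fit on recovered reads put the knockout level at 37.1% of the control level, with a 95% interval of 27.6 to 49.8%. On log2(FPKM + 1), which understates the change of a gene at this level, the log2 fold change was -1.06 (standard error, SE, 0.12; 95% interval -1.35 to -0.77).

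Across all 10787 genes tested with limma this had an adjusted p of 0.070 (unadjusted p = 4.73e-05), on the far side of the threshold of 0.05. The adjusted p was 0.063 on recovered reads with limma voom and 0.054 after median-of-ratios scaling. It ranked 5 by unadjusted p, and 15 genes had a more negative log2 fold change. A single gene passed over all genes tested, 0.00927% of them: Mb, the myoglobin gene, which is no forkhead gene. Of the 7 forkhead members tested, 0 passed in limma and 0 on recovered reads. An unadjusted p under 0.05 was found for 3 of the 7 with either tool, against 24.1% of all genes in limma. In whole-tissue RNA, fewer cells of a type and less RNA per cell cannot be told apart, and a value per gene does not show which exons the remaining Foxp4 reads cover.

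**Figure D1:**
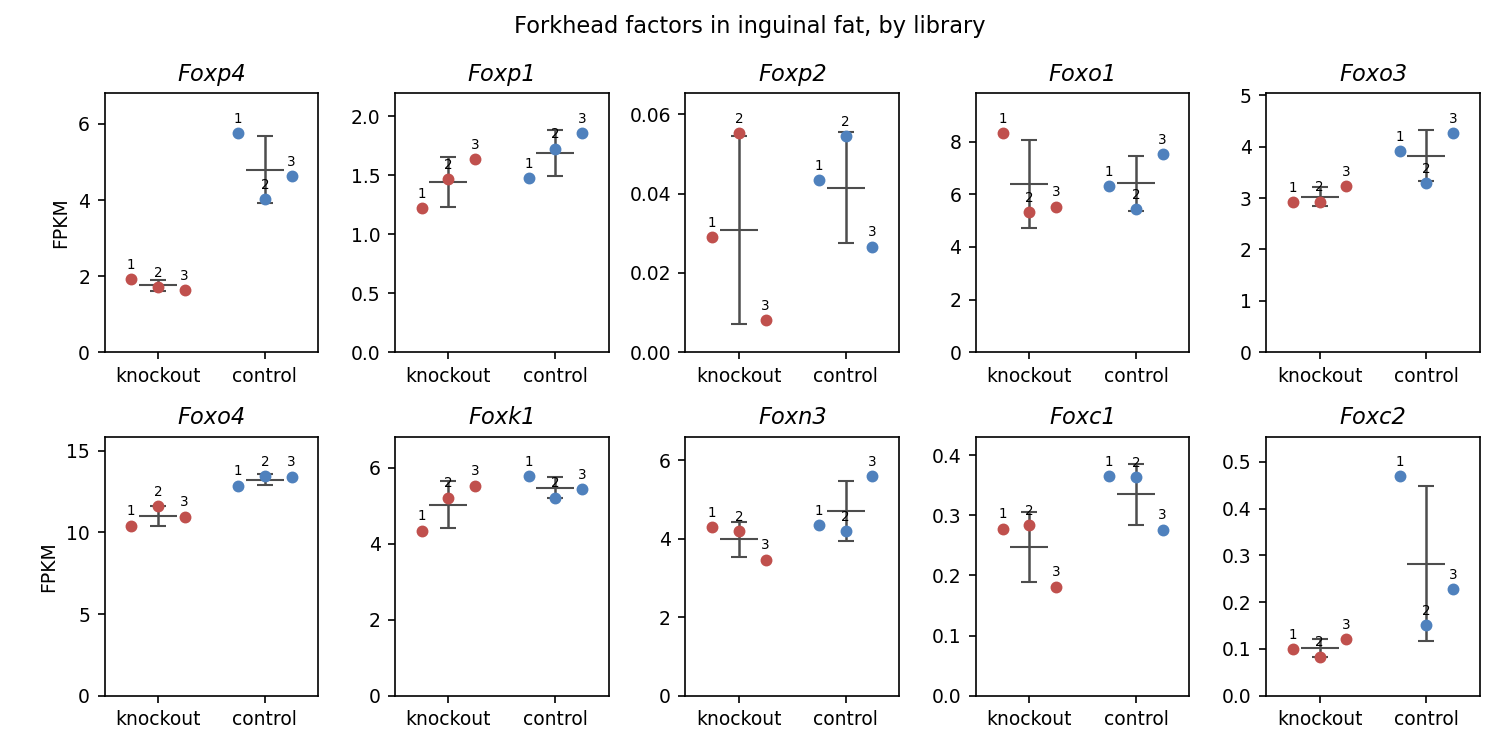
FPKM of the 10 forkhead genes in each library, knockouts in red left of controls in blue, with the replicate number above each point. Bars give the mean and SD of 3 libraries, and each axis starts at 0 with its own scale. Foxp4, Foxo3, Foxo4 and Foxc2 show no overlap between the groups, with all 3 knockouts lower. The same held for 22.7% of all genes tested. After median-of-ratios scaling the Foxo3 groups overlap, and Foxc2, which was not tested, rests on 3 to 18 reads per library.

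Foxp4 lies on chromosome 17 (47867133 to 47924645, minus strand of mm10), with 8 annotated transcripts and 4926 bases of merged exon. Its RefSeq promoter is shown because Foxp4 is the gene the comparison rests on. Whether the floxed stretch includes it is not given. The 250 bases before the start (GRCm38.p6, chr17:47924633-47924882, minus strand) have a GC content of 69.6%, against a median of 52.4% over all RefSeq promoters of this length. Forkhead motifs were searched on both strands. The first was TGTTTAC, the usual forkhead core. The next was TGTTTGC, a variant of it. The last was TATTTAC, another variant. The Foxp4 window holds none of them, so no base is in capitals.
Foxp4 promoter: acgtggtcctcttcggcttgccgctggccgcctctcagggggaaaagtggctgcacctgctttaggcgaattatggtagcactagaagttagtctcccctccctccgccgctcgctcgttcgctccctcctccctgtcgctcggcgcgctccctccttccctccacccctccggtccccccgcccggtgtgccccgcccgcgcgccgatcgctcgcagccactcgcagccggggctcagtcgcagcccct
RefSeq promoters were found for 6 of the 10 genes, at 8 start sites. A motif match was found at 1 of the 8 start sites, the most upstream of the 3 of Foxp1, where TGTTTGC begins 167 bases before the start. Of the 250 bases in this window, 169 lie in annotated exons of Foxp1, so much of it is not only promoter. The match is shown with 10 bases on either side and the motif in capitals (GRCm38.p6, chr6:99521144-99521170, minus strand).
Foxp1 site: cccaccccagTGTTTGCttggaaattg
Any of the 3 motifs stood in 9.73% of all 32851 promoters searched, TGTTTGC in 4.30%, TGTTTAC in 3.17% and TATTTAC in 2.73%. The 3 motifs are distinct and cannot start at the same base. A match is a stretch of letters only, and nothing about binding was measured.

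Foxp1, the close relative with which Foxp4 can dimerize, was not higher in the knockouts. It stood at 1.22, 1.47 and 1.64 FPKM in knockouts and at 1.48, 1.73 and 1.86 FPKM in controls, on 248 to 341 and 286 to 412 reads per library. The groups overlapped. The difference was -0.14 on the log2 scale (SE 0.11, 95% interval -0.39 to 0.11; limma adjusted p = 0.45). On recovered reads the knockout level was 85.0% of the control level, with a 95% interval of 67.3 to 107%. A rise of Foxp1 above 107% of the control level thus lay outside the interval, and no change or a fall lay within it. This bound depends on how libraries are scaled. The median log2 fold change of all genes in that fit was -0.10. In limma the Foxp1 difference was -0.078 after median-of-ratios scaling. Annotated exons of Foxp1 (chromosome 6, 98925338 to 99522721, minus strand) share 300 bases with the same-strand gene model Gm20696 and 135 bases with a miRNA model, so a small part of its reads is uncertain.

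Foxp2, best known from brain and lung, was barely detected. It stood at 0.029, 0.055 and 0.0081 FPKM in knockouts and at 0.043, 0.054 and 0.027 FPKM in controls, on 2 to 12 and 7 to 13 reads per library. At this depth no difference could be told. It did not reach the mean of 1 FPKM needed to be tested. Foxp3, the Foxp gene of regulatory T cells and not among the 10 genes, had 3 reads over the knockouts and 9 reads over the controls.

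The summed level of Foxp1, Foxp2 and Foxp4 was 3.17, 3.23 and 3.28 FPKM in knockouts, against 7.28, 5.80 and 6.51 FPKM in controls. The knockout libraries were nearly equal in this sum, and every one lay below every control. The difference in means was -3.30 FPKM (3.23 ± 0.056 in knockouts and 6.53 ± 0.74 in controls, SD, n = 3 each). The two-sided exact permutation test gave p = 0.10, the smallest that 3 against 3 allow. Foxp4 made up 60.6, 52.9 and 49.8% of this sum in knockouts and 79.1, 69.3 and 71.0% in controls, again without overlap and with an exact permutation p of 0.10. This share does not depend on how libraries are scaled to each other. Foxp4 is itself part of the sum, with means of 1.76 FPKM in knockouts and 4.80 FPKM in controls. Neither the sum nor the share is therefore separate from the deletion that defines the groups. Foxp4 stood 1.58, 1.17 and 0.999 times as high as Foxp1 in the knockout libraries, against 3.90, 2.32 and 2.49 times in the control libraries.

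**Figure D2:**
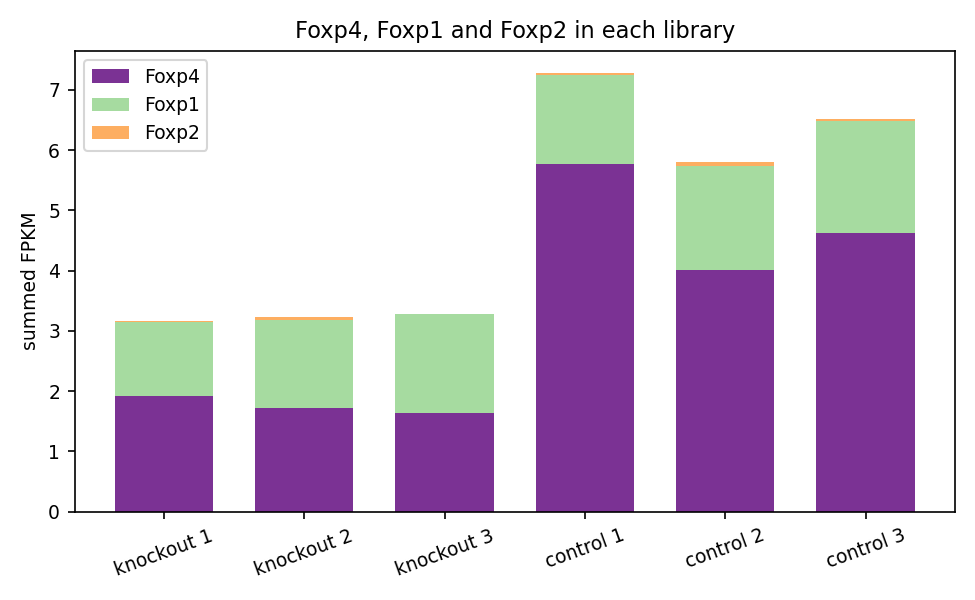
Stacked FPKM of Foxp4, Foxp1 and Foxp2 in each of the 6 libraries, knockouts on the left, with bars starting at 0. The sum lies between 3.17 and 3.28 FPKM in knockouts and between 5.80 and 7.28 FPKM in controls, and Foxp2 is barely visible.

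Foxo4, a Foxo factor of the insulin pathway, was the most abundant of all 44 forkhead genes. It stood at 10.4, 11.6 and 11.0 FPKM in knockouts and at 12.9, 13.4 and 13.4 FPKM in controls, on 537 to 578 and 631 to 753 reads. Every knockout lay below every control, and the controls lay close together (SD 0.33 FPKM). In limma it differed by -0.25 on the log2 scale (SE 0.073, 95% interval -0.42 to -0.075). The unadjusted p was 0.011 and the adjusted p 0.12. On recovered reads it stood at 83.0% of the control level (95% interval 72.7 to 94.7%).

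Foxo3, which drives autophagy and atrophy genes in other tissues, stood at 2.92, 2.93 and 3.24 FPKM in knockouts and at 3.92, 3.29 and 4.27 FPKM in controls. The groups were apart by a narrow gap, between knockout replicate 3 and control replicate 2. In limma it differed by -0.26 on the log2 scale (SE 0.10, 95% interval -0.49 to -0.021). The unadjusted p was 0.037 and the adjusted p 0.18. Foxo1, the main Foxo factor studied in adipocytes, varied within both groups. It stood at 8.33, 5.31 and 5.52 FPKM in knockouts and at 6.30, 5.43 and 7.52 FPKM in controls, and knockout replicate 1 was the highest of all 6 libraries. The difference was -0.019 on the log2 scale (SE 0.17; limma adjusted p = 0.95), and 0.066 after median-of-ratios scaling, so it has no stable direction. Its exons overlap an antisense model, Gm20402, over 674 bases, and whether counting used strand is not stated. The interval on recovered reads ran from 72.2 to 134% of the control level.

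Of the 6 tested members other than Foxp4, all had a log2 fold change below 0, as did 66% of all genes tested, with a median of -0.17 against -0.082 over all genes; after median-of-ratios scaling Foxo1 alone of the 6 was above 0. Both Foxo3 and Foxo4 had an unadjusted p under 0.05 with a lower level, which is 2 of the 6, against 17.1% of all genes. The same 2 had groups that did not overlap, against 22.7% of all genes with the knockouts lower. Of the 6, 0 were apart with the knockouts higher, against 8.48% of all genes and 31.2% apart in either direction. After median-of-ratios scaling 0 of the 6 had such a p: it was 0.092 for Foxo4 and 0.089 for Foxo3, and only Foxo4 kept groups apart. Without knockout replicate 1 the count was also 0, and it was 1 without knockout replicate 2, control replicate 1 or control replicate 3. Within the Foxo subfamily the proportions overlapped between groups. Foxo4 made up 54.1 ± 5.37% of the summed Foxo1, Foxo3 and Foxo4 level in knockouts and 56.5 ± 3.78% in controls (SD, n = 3 each), and Foxo1 made up 31.1 ± 6.42 and 27.2 ± 2.67%. The summed level was 21.7, 19.9 and 19.7 FPKM in knockouts, against 23.1, 22.1 and 25.2 FPKM in controls.

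Foxk1, a repressor that works with Sin3 and promotes glycolysis in mouse fat and muscle cells, stood at 4.34, 5.20 and 5.52 FPKM in knockouts and at 5.77, 5.21 and 5.43 FPKM in controls. The groups overlapped, with a difference of -0.11 on the log2 scale (SE 0.097; limma adjusted p = 0.52). Foxn3, a transcriptional repressor first studied in cell-cycle checkpoints, stood at 4.29, 4.19 and 3.46 FPKM in knockouts and at 4.35, 4.19 and 5.59 FPKM in controls. Its groups also overlapped, since control replicate 2 stood below knockout replicate 1, with a difference of -0.19 on the log2 scale (SE 0.12; limma adjusted p = 0.36). The intervals on recovered reads reached up to 109% of the control level for Foxk1 and 106% for Foxn3. These bounds also depend on library scaling: after median-of-ratios scaling the limma differences were -0.024 for Foxk1 and -0.11 for Foxn3.

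**Figure D3:**
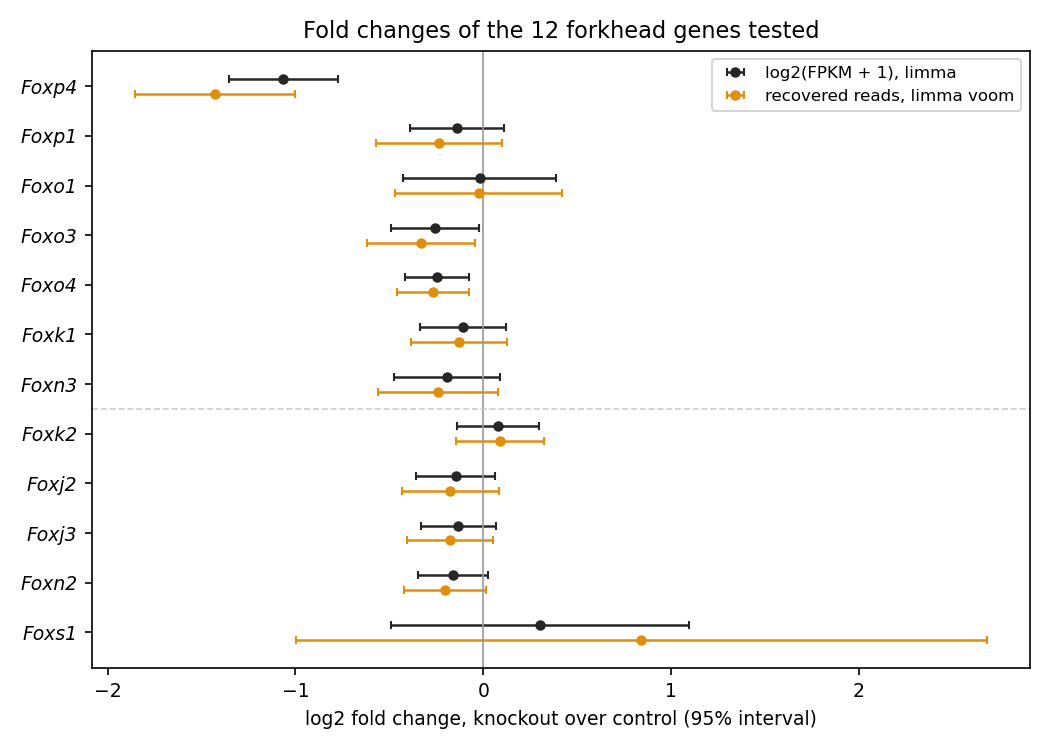
Log2 fold change, knockout over control, with its 95% interval for the 12 forkhead genes tested, in limma on log2(FPKM + 1) in black and limma voom on recovered reads in orange. The 7 genes above the dashed line are Foxp4 and its 6 tested relatives, and Foxp4 alone has an interval wholly below -0.5.

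Foxc1 and Foxc2, intronless factors of vessel and lymphatic development, were expressed below 1 FPKM and were not tested. Foxc2 stood at 0.099, 0.083 and 0.12 FPKM in knockouts and at 0.47, 0.15 and 0.23 FPKM in controls. All 3 knockouts were lower, on only 3 to 5 reads per knockout library and 6 to 18 reads per control library. Its total was 12 reads in knockouts and 34 reads in controls, and control replicate 1 gave 18 of those 34. When no filter was applied it had an unadjusted p of 0.051 (adjusted p = 0.29 in limma). Foxc1 stood at 0.28, 0.28 and 0.18 FPKM in knockouts and at 0.36, 0.36 and 0.28 FPKM in controls. The groups overlapped in the narrow stretch between knockout replicate 2 and control replicate 3.

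In FPKM as deposited, summed lymphatic, macrophage and adipocyte markers were lower in every knockout library than in any control, as Foxc2 was. Of all single genes tested, 22.7% were apart in this direction. Median-of-ratios factors were 0.945 to 0.986 in knockouts and 0.995 to 1.09 in controls, so the narrow lymphatic and adipocyte gaps depend on scaling. With it the median log2 fold change went from -0.14 to -0.043 for the adipocyte list. It went from -0.49 to -0.41 for the lymphatic list and from -0.63 to -0.54 for the macrophage list. The lymphatic endothelial list summed to between 20.8 and 21.7 FPKM in knockouts and between 23.5 and 41.4 FPKM in controls. Of its 8 markers only 3 passed the filter to be tested. Lyve1 and Pdpn, 2 of these 3, were lower at an unadjusted p under 0.05 in limma (adjusted p = 0.15 and 0.12), against 17.1% of all genes. The groups of the third, Itga9, overlapped (adjusted p = 0.76 in limma). Lyve1 alone had 14.4 ± 0.60 FPKM in knockouts and 22.2 ± 6.65 FPKM in controls. Lyve1 is also made by macrophages, whose list summed to between 327 and 432 FPKM in knockouts and between 523 and 696 FPKM in controls. Of its 7 markers, 7 were lower at such a p, and 0 reached the adjusted threshold. The general endothelial list overlapped, at 90.2 to 109 FPKM in knockouts and 81.2 to 156 FPKM in controls. The progenitor list also overlapped in its sum, at 320 to 370 FPKM in knockouts and 348 to 687 FPKM in controls, but 4 of its 8 markers were lower at such a p and 0 reached the adjusted threshold. Its median log2 fold change was -0.42, against -0.062 for the endothelial list, which turned to 0.031 after median-of-ratios scaling. The adipocyte list summed to between 5108 and 5265 FPKM in knockouts and between 5381 and 6546 FPKM in controls. Skeletal muscle markers ranged from 19.6 to 298 FPKM in knockouts and from 15.6 to 66.2 FPKM in controls. The part of these cell types in the forkhead levels was not tested.

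In order of level the controls ran from Foxo4 through Foxo1, Foxk1, Foxp4, Foxn3, Foxo3, Foxp1, Foxc1 and Foxc2 to Foxp2. Neighbours from Foxo1 to Foxo3 overlapped across the 3 control libraries, as did Foxc1 and Foxc2, while the steps at Foxo4, Foxp1, Foxc1 and Foxp2 were clear of overlap. In knockouts Foxp4 stood below Foxn3 and Foxo3 and overlapped with Foxp1. The exon lengths behind these levels join all annotated transcripts of a gene, so a gene such as Foxp1 with 13751 bases of merged exon may be understated if shorter transcripts are used.

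Of the 34 other forkhead genes of the table, 5 passed the filter at 1 FPKM, 29 did not, and 10 were listed at 0 in every library. Foxk2, the paralog of Foxk1, had 8.86 ± 0.46 FPKM in knockouts and 8.37 ± 0.91 FPKM in controls (SD, n = 3 each; log2 fold change 0.077, adjusted p = 0.63 in limma). Foxj2 had 4.21 ± 0.29 and 4.78 ± 0.45 FPKM, Foxj3 had 2.86 ± 0.24 and 3.23 ± 0.16 FPKM, and Foxn2 had 3.98 ± 0.21 and 4.58 ± 0.28 FPKM. For Foxj3 and Foxn2 all 3 knockouts lay below the controls, as in 22.7% of all genes, though the unadjusted limma p was 0.16 and 0.081. After median-of-ratios scaling the groups of both overlapped, with log2 fold changes of -0.059 for Foxj3 and -0.081 for Foxn2, against -0.13 and -0.16 before it. Foxs1, a factor of blood vessel wall cells, stood at 1.65, 1.95 and 0.86 FPKM in knockouts and at 1.52, 0.16 and 1.66 FPKM in controls, with 3 reads in control replicate 2. The mural cell list was also lowest in that library, at 57.4 FPKM, against 71.1 FPKM or more in the other 5, and its part in the Foxs1 value was not tested. None of the 5 had an unadjusted p under 0.05 in limma, against 24.1% of all genes, and 0 passed over all genes. The 43 forkhead genes without Foxp4 summed to 53.8 ± 1.66 FPKM in knockouts and 59.9 ± 4.32 FPKM in controls, with overlapping groups. Foxp4 was 3.16 ± 0.17% of the summed forkhead level in knockouts and 7.40 ± 1.06% in controls.

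Genes that act around these factors were followed in 5 lists. The shares over all genes set beside them depend on library scaling. At an unadjusted p under 0.05 in limma, 753 of 10787 genes were higher and 1848 lower. After median-of-ratios scaling 1404 of 10776 were higher and 1001 lower. Among 15 genes that carry the insulin signal to Foxo, limma gave an unadjusted p under 0.05 to 1 with a higher level and 3 with a lower one, near the shares of 6.98 and 17.1% over all genes. None reached the adjusted threshold (0 of 15). Irs2, the insulin receptor substrate that is itself a Foxo target, stood at 5.60, 6.72 and 7.14 FPKM in knockouts and at 12.5, 7.67 and 9.34 FPKM in controls. All 3 knockouts were lower, by a small step from control replicate 2 (log2 fold change -0.52, adjusted p = 0.14 in limma). Mtor, the kinase of cell growth, had 20.9 ± 2.48 FPKM in knockouts and 16.3 ± 0.76 FPKM in controls (log2 fold change 0.34, adjusted p = 0.12). The receptor gene Igf1r had 0.85 ± 0.12 FPKM in knockouts and 1.36 ± 0.24 FPKM in controls. Levels of Akt2, the main Akt of insulin-stimulated fat, overlapped at 61.7 ± 5.29 and 62.8 ± 1.43 FPKM (a gene picked with its values known).

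Of 13 tested regulators of Foxo proteins (deacetylases, ubiquitin enzymes, kinases, acetylases and 14-3-3 proteins), limma gave such a p to 1, which was higher, near the 6.98% of all genes, and the adjusted threshold was reached by 0. This was Prkaa2, a catalytic subunit of the energy sensor AMPK, with 5.39 ± 0.49 FPKM in knockouts and 3.89 ± 0.70 FPKM in controls (log2 fold change 0.39, adjusted p = 0.14). The deubiquitinase gene Usp7 had 11.4 ± 0.66 and 12.5 ± 0.80 FPKM, the stress kinase gene Mapk8 had 2.51 ± 0.19 and 2.17 ± 0.25 FPKM, and the 14-3-3 gene Ywhab had 159 ± 7.24 and 178 ± 25.6 FPKM, all with overlapping groups. After median-of-ratios scaling the unadjusted limma p was 0.0034 for Prkaa2 and 0.044 for Mapk8, both with higher levels.

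Known target genes of Foxo factors differed in both directions. Of 22 tested, 11 had an unadjusted p under 0.05 in limma, 4 with higher and 7 with lower levels, against 6.98 and 17.1% of all genes. The adjusted threshold was reached by 0, and the list median was -0.14, or -0.052 after median-of-ratios scaling. Sesn1, a stress-induced inhibitor of mTORC1 signalling, stood at 6.16, 5.92 and 5.86 FPKM in knockouts and at 10.1, 9.25 and 9.33 FPKM in controls. Both groups were tight and far apart (log2 fold change -0.60, SE 0.072, adjusted p = 0.070 in limma). Cited2, a transcriptional coregulator, stood at 9.94, 5.79 and 7.74 FPKM in knockouts and at 18.2, 14.2 and 14.4 FPKM in controls. Its groups were apart as well (log2 fold change -0.93, adjusted p = 0.081). The mitophagy receptor gene Bnip3 had 37.2 ± 0.93 FPKM in knockouts and 56.7 ± 10.4 FPKM in controls, and the cell-cycle inhibitor gene Cdkn1b had 7.47 ± 0.44 and 10.4 ± 1.12 FPKM.

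The 4 target genes with higher levels, picked with their values known, were Cdkn1a, Ccng2, Sod2 and Pdk4. The cell-cycle inhibitor Cdkn1a had 11.3 ± 3.42 FPKM in knockouts and 5.40 ± 1.47 FPKM in controls, and the cyclin gene Ccng2 had 11.4 ± 0.57 and 8.52 ± 0.81 FPKM. Sod2, the superoxide dismutase of mitochondria, had 59.1 ± 7.86 and 40.9 ± 6.28 FPKM, and Pdk4, which limits glucose oxidation, had 501 ± 42.6 and 300 ± 116 FPKM. The groups were apart in each of the 4, and their adjusted p in limma lay between 0.090 and 0.16. Thus Cdkn1a and Cdkn1b, both cell-cycle inhibitors of the same family, lay on opposite sides.

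**Figure D4:**
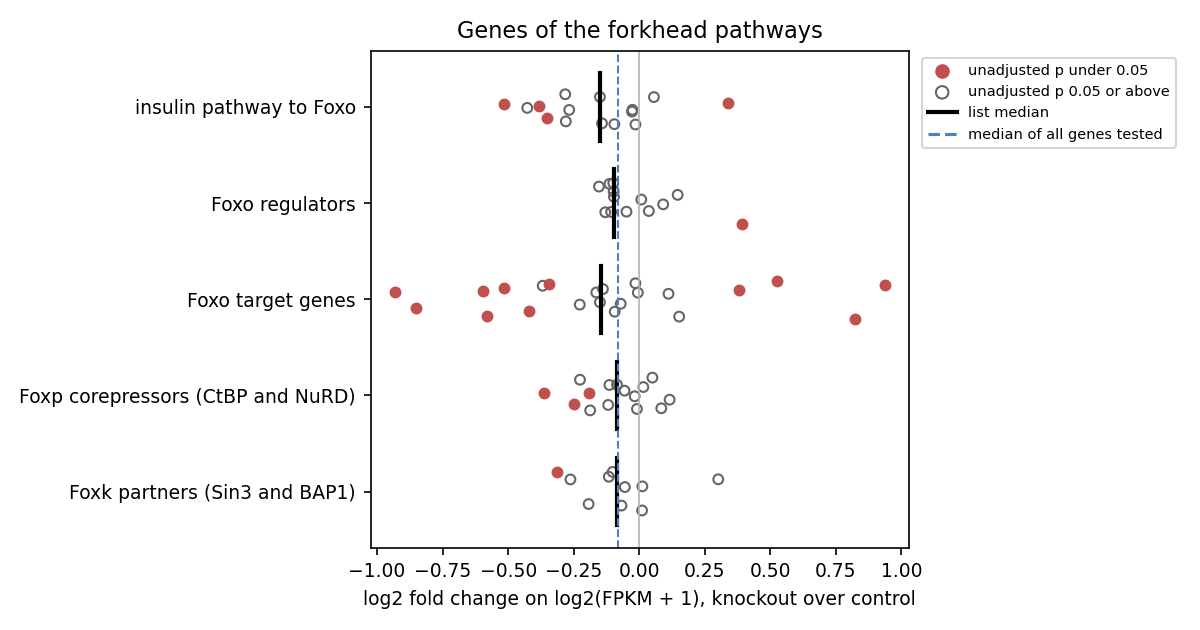
Log2 fold change on log2(FPKM + 1), knockout over control, of each tested gene in 5 lists around the forkhead factors. Filled points had an unadjusted p under 0.05, black lines are list medians and the dashed line is the median of all genes tested, -0.082. The Foxo target genes spread to both sides, 7 filled points below 0 and 4 above.

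Corepressor genes of Foxp proteins stood near the median of all genes. Among 15 genes for CtBP and NuRD subunits, 3 had an unadjusted p under 0.05 in limma, all with lower levels, near the 17.1% of all genes, and 0 reached the adjusted threshold. Their median log2 fold change was -0.085, and 0.011 after median-of-ratios scaling. With that scaling Mbd2 alone of the 3 kept such a p in limma (0.0077), against 0.23 for Mta3 and 0.16 for Gatad2b. Mbd2, a methyl-CpG binding subunit, stood at 14.6, 13.6 and 12.8 FPKM in knockouts and at 18.2, 17.5 and 17.9 FPKM in controls, without overlap (log2 fold change -0.36, adjusted p = 0.082 in limma). The NuRD subunit genes Gatad2b and Mta3 had 3.59 ± 0.53 and 8.49 ± 0.072 FPKM in knockouts, against 4.44 ± 0.090 and 9.84 ± 0.33 FPKM in controls, and Ctbp2 had 2.57 ± 0.12 and 3.07 ± 0.23 FPKM. Of 10 genes for Foxk partners of the Sin3 and BAP1 complexes, 1 had such a p, with a lower level, no more than the 17.1% of all genes, and 0 reached the adjusted threshold. This was Ogt, the enzyme that adds N-acetylglucosamine to nuclear proteins, with 20.2 ± 1.11 FPKM in knockouts and 25.4 ± 1.94 FPKM in controls (adjusted p = 0.11). Sin3a had 5.75 ± 0.70 and 6.70 ± 0.39 FPKM, Sap30 had 4.16 ± 0.82 and 3.19 ± 0.65 FPKM, and Dvl2 had 1.56 ± 0.41 and 2.05 ± 0.22 FPKM. After median-of-ratios scaling the unadjusted limma p was 0.019 for Ogt, still lower, and 0.044 for Sap30, with a higher level.

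Among the 5 tested genes whose profile over the 6 libraries was nearest to that of Foxp4 were Rasl11b, Tmem43, Chst1 and Slc1a3. Likeness was the root mean square difference in log2(FPKM + 1), each gene centred on its own mean, which was 0.12 for Rasl11b and 0.14 for Slc1a3. Rasl11b, a Ras-like GTPase gene, stood at 1.72, 1.36 and 1.56 FPKM in knockouts and at 5.09, 2.98 and 3.36 FPKM in controls. Like Foxp4, these 4 were highest in control replicate 1 and lower in every knockout. Both traits come with the choice, since the genes were picked for their likeness to Foxp4 over the 6 libraries. Slc1a3, a glutamate transporter gene, had 10.3 ± 1.47 FPKM in knockouts and 20.2 ± 5.25 FPKM in controls, the nuclear envelope gene Tmem43 had 29.2 ± 2.50 and 53.2 ± 10.2 FPKM, and the sulfotransferase gene Chst1 had 22.7 ± 3.05 and 44.3 ± 9.43 FPKM. Their log2 fold changes lay between -0.92 and -0.83, and the difference between the 2 groups is part of this measure.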

How the data were processed

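Libraries came from total RNA by a stranded mRNA-seq kit, per the labels' protocols. For read processing, cutadapt, HISAT2, HTSeq and mm10 appear in the submitters' processing notes; tool versions, the annotation and whether counting used strand are not stated there. The authors deposited FPKM per gene in 21936 rows. For 36 repeated symbols the row with the higher mean was kept. Multiplied by merged exon length (GENCODE M21) and 1 scale per library, 97.9 to 98.1% of the FPKM values worth up to 50 reads came out whole (tolerance 0.05). The reads so recovered, for 21365 genes, give the depths. Any 2 libraries differed by a chi-square of at least 8.86 per degree of freedom, more than resequencing of the same library would give. This does not show that they come from different mice, and each was treated as its own sample.

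The 10787 genes that averaged 1 FPKM or more in a group were tested with limma 3.58.1 in R 4.3.3 (trended variance, log2(FPKM + 1), a genotype term alone), with Benjamini-Hochberg adjustment over them all. Percent-of-control levels with an interval come from limma voom on recovered reads, scaled by library size alone. The percentages of single knockout libraries for Foxp4 are FPKM over the control mean. Summed levels were compared by exact permutation. The fit was tested on simulated data. Alternatives were a pseudocount of 0.1, no filter, a replicate block, median-of-ratios scaling, limma voom, reads not divided by length and leaving out each library. All members were named, as were other forkhead genes at 1 FPKM, 4 genes per pathway list by smallest p, up to 3 markers per cell type by level and the 5 genes most like Foxp4. Some genes that this rule names are not reported here. Members and lists were chosen with earlier results of these data known. Promoters are from RefSeq (GRCm38.p6).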

Additional observations from a re-analysis of the deposited data

How the results depend on the processing

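Foxp4 stayed below its controls in each of the 11 alternatives and above an adjusted p of 0.05 in each: leaving out 1 library gave log2 fold changes from -1.16 to -0.95, with adjusted p in limma from 0.060 (without control replicate 3) to 0.29 (without knockout replicate 2), and was -1.39 with a pseudocount of 0.1 and -1.43 with voom. Under a replicate block it was -1.06 with an adjusted p of 0.13. Same-numbered libraries had deviations from their group means with correlations of 0.065, 0.027 and -0.25, against -0.23 to 0.18 for the other pairs. No pairing by number was seen, but 3 libraries per group are too few to exclude it. The summed Foxp difference of -3.30 FPKM and the share difference of -18.7 percentage points kept their values under the block, where the exact sign-flip p was 0.25, the smallest that 3 pairs allow. Without 1 library they ranged from -3.67 to -2.92 FPKM and from -21.8 to -15.7 points.

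The count of genes called, 1 in limma, was 0 without a filter, with the block and with voom, and 0 to 5 without 1 library. The count of members other than Foxp4 with an unadjusted p under 0.05, 2 in limma, was 0 after median-of-ratios scaling and 0 to 2 without 1 library. Foxo1 turned positive after median-of-ratios scaling (0.066) and without knockout replicate 2 (0.082), knockout replicate 3 (0.059) or control replicate 3 (0.085), and its lowest value without 1 library was -0.20. Foxs1 turned negative without control replicate 2 (-0.083) and was highest, among values without 1 library, at 0.52. The causes were not tested. Of 37 genes compared under each alternative, the other 35 kept their direction; the cell-type markers, Akt2, Cdkn1a, Ccng2, Sod2 and Pdk4 were not compared. Foxp2 and Foxc2, at 2 to 18 reads per library, are limited by depth.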
